A study of Mus musculus with 24 samples.

Results

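A set of 10 genes of nitric oxide and cyclic GMP signalling was followed in brain pericytes and endothelial cells of mouse embryos, in mutants with Pdgfrb-Cre and both copies of Alk5, a TGF-beta receptor gene, floxed, and in their controls. They were chosen by name, with earlier results of these data known. The set held Nos3, the soluble guanylyl cyclase subunit genes Gucy1a1, Gucy1a2 and Gucy1b1, the natriuretic peptide receptor gene Npr1, the kinase gene Prkg1 and the phosphodiesterase genes Pde1a, Pde1c, Pde3a and Pde5a. These are 10 of the 25471 genes that the 3 deposited tables list between them. The study sequenced messenger RNA of flow-sorted cells in 24 samples and deposited 1 comparison of mutants with controls for each cell type and stage. At E13.5 there were 4 mutant and 4 control pericyte samples, at E11.5 there were 4 mutant and 4 control pericyte samples, and at E13.5 there were 3 mutant and 5 control endothelial samples.

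Mutants were labelled Pdgfrb-Cre, Alk5(flox/flox), Zs/+ and controls Pdgfrb-Cre, Alk5(flox/+), Zs/+, so all groups carried the Cre and the allele labelled Zs, and controls carried 1 floxed copy of Alk5 where mutants carried 2. Pdgfrb-Cre is active in pericytes and other mural and mesenchymal cells, so the endothelial cells of mutants were neighbours of the targeted cells. The pericyte labels also say mesenchymal cells: in E13.5 mutants and controls, fibroblast and meningeal markers summed to 315069 and 299827, beside 25189 and 24913 for pericyte markers, per the authors' deposited table. Ranked per kb among all genes in controls, pericyte markers ran from Atp13a5 at the 9.58th percentile to Pdgfrb at the 95.4th, with Kcnj8 at the 64.3rd. Fibroblast and meningeal markers ran from Aldh1a2 at the 84.7th to Col1a1 at the 99.8th. The labels mark the mutants with GMH-IVH and do not say whether samples came from separate litters. Only group means could be used, so a sample's own value and the spread between samples were not analysed here, and the standard error (SE) printed with a log2 ratio was worked back from the authors' ratio and p. In bulk samples, fewer cells of a type and less RNA per cell cannot be told apart.

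In vessels, endothelial nitric oxide synthase makes nitric oxide, which diffuses into mural cells and binds the haem of soluble guanylyl cyclase, a dimer of an alpha and a beta subunit. The cyclase makes cyclic GMP, which activates the kinase encoded by Prkg1 and so relaxes contractile cells. Natriuretic peptides raise cyclic GMP through NPR1, a membrane receptor with its own cyclase domain. Phosphodiesterases end the signal by hydrolysing cyclic GMP or cyclic AMP, and PDE3A links both, because cyclic GMP slows its breakdown of cyclic AMP.

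Gucy1b1 (minus strand, 82032006 to 82074689) and Gucy1a1 (minus strand, 82092427 to 82145789) are neighbours on chromosome 3, with 17737 bases between them in GENCODE's annotation of mm10. Their start regions are printed because the 2 subunit genes lie side by side and had log2 ratios of the same sign in every comparison below. A start region of Pde1c is printed because Pde1c is the member whose response differed between stages. Each window is RefSeq's for GRCm38.p6, with 250 bases before and 50 after an annotated start. The most upstream window is shown where several are listed. For Pde1c that window lies inside the gene, whose upstream end in GENCODE's annotation is at 56569103, and the region at that end is not shown. Capitals mark CAGAC on either strand (GTCTG on the other), a short sequence known to be bound by SMAD proteins.
Gucy1b1, chr3:82074662-82074961, minus strand: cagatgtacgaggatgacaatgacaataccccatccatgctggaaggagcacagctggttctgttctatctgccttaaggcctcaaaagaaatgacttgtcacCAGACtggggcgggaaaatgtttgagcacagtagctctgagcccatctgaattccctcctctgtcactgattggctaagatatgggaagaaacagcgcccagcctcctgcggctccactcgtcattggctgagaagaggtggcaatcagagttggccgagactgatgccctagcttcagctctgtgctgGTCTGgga
Gucy1a1, chr3:82145601-82145900, minus strand: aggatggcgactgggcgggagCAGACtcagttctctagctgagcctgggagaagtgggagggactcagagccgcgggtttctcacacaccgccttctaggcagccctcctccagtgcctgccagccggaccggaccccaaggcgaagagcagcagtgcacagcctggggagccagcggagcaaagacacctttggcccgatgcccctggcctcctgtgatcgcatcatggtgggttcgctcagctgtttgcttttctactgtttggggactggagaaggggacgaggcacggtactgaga
Pde1c, chr6:56369585-56369884, minus strand: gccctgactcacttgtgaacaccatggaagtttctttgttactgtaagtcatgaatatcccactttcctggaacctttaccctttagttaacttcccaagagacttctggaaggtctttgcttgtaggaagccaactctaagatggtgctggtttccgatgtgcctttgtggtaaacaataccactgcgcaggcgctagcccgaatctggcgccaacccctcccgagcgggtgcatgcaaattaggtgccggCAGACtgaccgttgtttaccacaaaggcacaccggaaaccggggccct
The window of Gucy1b1 held 2 matches and those of Gucy1a1 and Pde1c 1 each. Of the 8 members with a window, 5 held CAGAC in the most upstream one, and 49.6% of all 32851 windows of 300 bases held it. The CArG box, bound by serum response factor, was searched on both strands and was in 0 of these 8 windows and in 1.63% of all windows.

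Pde1c and Pde3a fell in mutant pericytes at E11.5, and no member passed the threshold in mutant pericytes or endothelial cells at E13.5. A gene was called changed at an adjusted p under 0.05, taken over all genes of its table. Members were chosen with earlier results of these data known, so the shares over all genes beside their counts are a description. At E13.5, 0 of 10 members were called in pericytes by the authors' test (DESeq2 is the testing tool named in the submitters' processing notes), where 0.388% of 20084 tested genes were called, and 1 of 10 had an unadjusted p under 0.05, where 4.06% of all genes did. At E11.5, 2 of 10 were called in pericytes, both lower, where 3.35% of 19301 tested genes were called, 2.70% lower and 0.642% higher, and 3 of 10 had an unadjusted p under 0.05, where 17.7% of all genes did. In E13.5 endothelial cells, 0 of 8 tested members were called and 0 had an unadjusted p under 0.05, where 7.30% of 18132 genes were called, 5.11% higher, and 20.0% had such a p. The members' median log2 ratio was 0.08 in E13.5 pericytes, -0.45 in E11.5 pericytes and -0.08 in E13.5 endothelial cells, where the medians over all tested genes were 0.00, -0.00 and -0.01. Of the 10 members, 8 had a negative log2 ratio at E11.5 and 3 had a negative one in pericytes at E13.5.

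**Figure D1:**
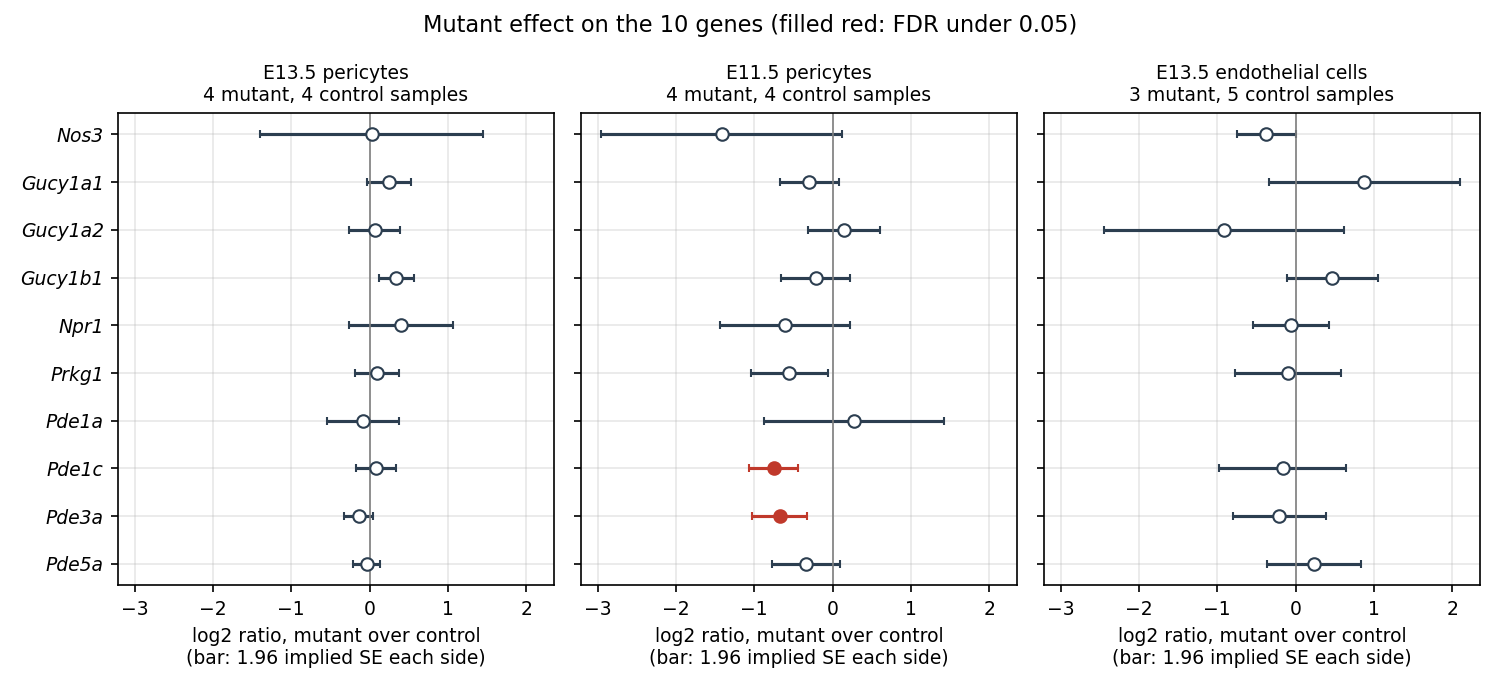
Log2 ratio of mutant over control (x axis) for the 10 genes (rows) in E13.5 pericytes, E11.5 pericytes and E13.5 endothelial cells, from group means of the sample numbers given above each panel. Points are the authors' ratios, bars span 1.96 implied SE on each side, and filled red points mark an adjusted p under 0.05, which only Pde1c and Pde3a at E11.5 reach.

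Nos3, the endothelial nitric oxide synthase gene (chromosome 5, plus strand, 24364810 to 24384474), was abundant in the endothelial sort and scarce in pericytes. Its means in endothelial cells were 1495 in mutants and 1936 in controls per the authors' deposited table, with the log2 ratio at -0.37 (SE 0.19, adjusted p = 0.258). Mutant and control pericytes had means of 18.8 and 18.5 at E13.5, and mutant and control pericytes had means of 5.96 and 15.9 at E11.5, per the authors' deposited tables. The E11.5 log2 ratio of -1.42 (SE 0.79, adjusted p = 0.329 per the authors' deposited table) was not called, rests on low means and was -0.70 with a pseudocount of 10. Exons of Nos3 overlap, on the opposite strand, those of Atg9b by up to 294 bases and those of Gm15587 by up to 163. Gm15587 averaged 135 in mutant and 224 in control endothelial cells (log2 ratio -0.73, adjusted p = 0.158) per the authors' deposited table. Atg9b averaged 65.5 in mutants and 54.7 in controls there (log2 ratio 0.26, adjusted p = 0.757). The sources used here do not say whether reads were counted by strand.

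The soluble guanylyl cyclase subunits had no called difference in any comparison. Gucy1a1, the alpha 1 subunit gene, had pericyte means of 672 in mutants and 567 in controls at E13.5 (log2 ratio 0.25, SE 0.14, adjusted p = 1.00) per the authors' deposited table. At E11.5 its means were 259.5 in mutants and 318 in controls (log2 ratio -0.29, SE 0.19, adjusted p = 0.416) per the authors' deposited table. In endothelial cells they were 588 in mutants and 319 in controls (log2 ratio 0.88, SE 0.62, adjusted p = 0.459) per the authors' deposited table. So alpha 1 was nominally higher in mutants in both E13.5 sorts and nominally lower at E11.5, each time within the uncertainty of its own comparison.

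Gucy1b1, the beta 1 subunit gene that pairs with either alpha, followed the same signs. The authors' deposited table gave E13.5 pericyte means of 306 in mutants and 241 in controls, with a log2 ratio of 0.34 (SE 0.11) and an unadjusted p of 0.00241 that became an adjusted p of 0.313. For E11.5 pericytes the authors' deposited table gave 254.6 in mutants and 296 in controls, a log2 ratio of -0.22 (SE 0.22, adjusted p = 0.634). For endothelial cells the authors' deposited table gave 289 in mutants and 208 in controls, a log2 ratio of 0.47 (SE 0.30, adjusted p = 0.387). Gucy1b1 at E13.5 was thus the single member of 10 with an unadjusted p under 0.05 in E13.5 pericytes, and it did not hold over all genes.

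Gucy1a2 (chromosome 9, plus strand, 3532778 to 3894736) encodes the alpha 2 subunit, best known from brain. In pericytes its means were 191 in mutants and 183 in controls at E13.5 (log2 ratio 0.06, SE 0.17), and 121 in mutants and 109 in controls at E11.5 (log2 ratio 0.15, SE 0.24), per the authors' deposited tables. Both adjusted p, 1.00 and 0.782 per the authors' deposited tables, were far from the threshold. Endothelial means were 5.60 in mutants and 10.5 in controls per the authors' deposited table, which gave no adjusted p at so low a level.

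Counted per kb of exon, so that genes of different length can be set side by side, alpha 1 exceeded alpha 2 in every group. The level of Gucy1a1 over that of Gucy1a2 per kb was 3.35 in mutant and 2.96 in control pericytes at E13.5, and 2.04 in mutant and 2.77 in control pericytes at E11.5. The level of Gucy1a1 over that of Gucy1b1 per kb was 1.24 in mutant and 1.32 in control pericytes at E13.5, against 0.574 in mutant and 0.606 in control pericytes at E11.5. In endothelial cells it was 1.15 in mutants and 0.863 in controls, and the control value lay on the other side of 1, at 1.05, when the longest transcript replaced the union of exons. The alpha 1 to beta 1 balance thus differed more between the pericyte stages than between genotypes within a stage, as a description of group means with no test.

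**Figure D2:**
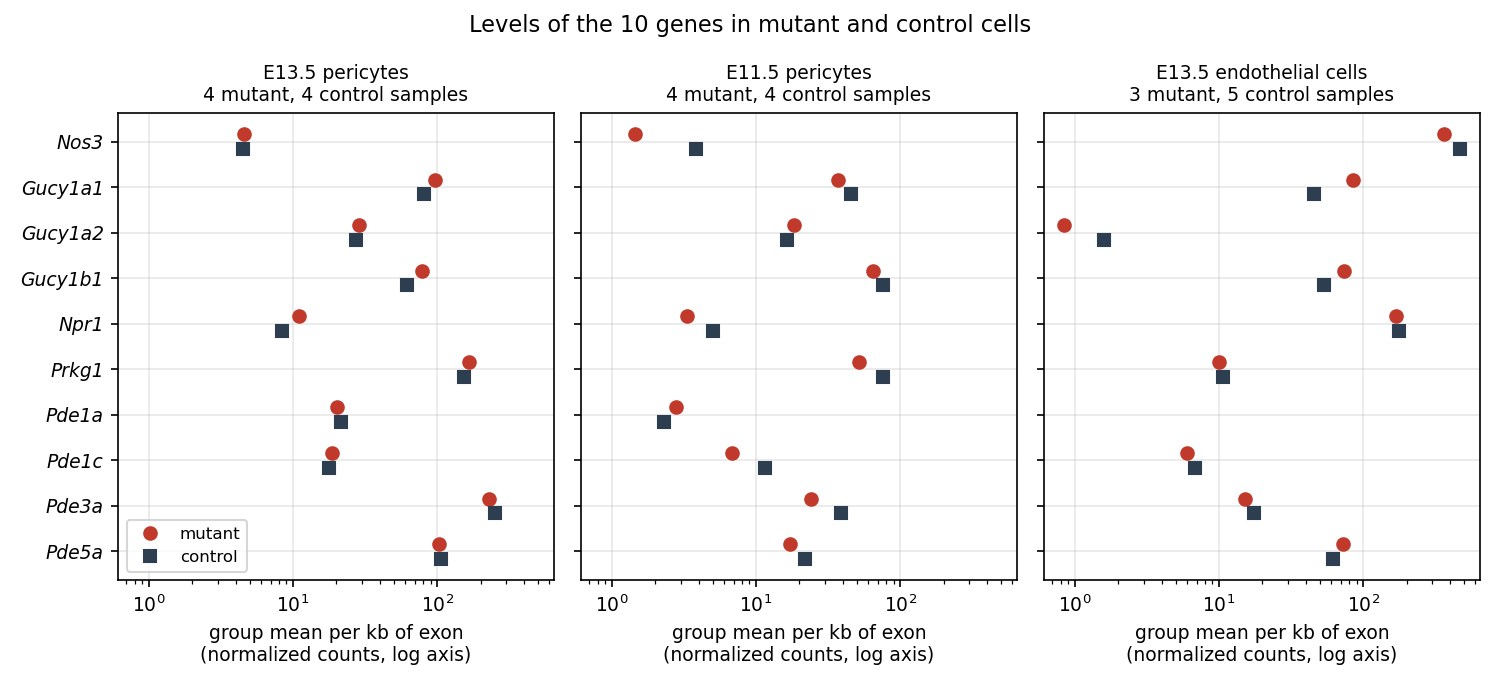
Group mean per kb of exon (normalized counts, log axis) for the 10 genes in mutants (red circles) and controls (dark squares), in E13.5 pericytes, E11.5 pericytes and E13.5 endothelial cells. Nos3 and Npr1 stand highest in endothelial cells and Pde3a highest in E13.5 pericytes, Pde1a has no endothelial value, and the spread between samples is not shown because the means are the authors' own.

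Npr1, the receptor of atrial and B-type natriuretic peptides (chromosome 3, minus strand, 90450591 to 90465866), was an endothelial gene in these sorts. Its endothelial means were 807 in mutants and 841 in controls (log2 ratio -0.06, SE 0.25, adjusted p = 0.928) per the authors' deposited table. Mutant and control pericytes had means of 53.0 and 40.2 at E13.5 and of 15.9 and 24.2 at E11.5 per the authors' deposited tables. The pericyte log2 ratios were 0.40 (SE 0.34) at E13.5 and -0.61 (SE 0.42) at E11.5, with adjusted p of 1.00 and 0.452 per the authors' deposited tables.

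Prkg1, the cyclic GMP-dependent kinase gene (chromosome 19, minus strand, 30564489 to 31765033), was abundant in pericytes. At E13.5 its means were 1794 in mutant and 1673 in control pericytes (log2 ratio 0.10, SE 0.14, adjusted p = 1.00) per the authors' deposited table. At E11.5 they were 566 in mutant and 829 in control pericytes per the authors' deposited table, a log2 ratio of -0.55 (SE 0.25) whose unadjusted p of 0.0275 became an adjusted p of 0.216. Endothelial means were 109 in mutants and 116 in controls per the authors' deposited table.

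Pde1c encodes a calcium and calmodulin-activated phosphodiesterase of cyclic AMP and cyclic GMP (chromosome 6, minus strand, 56069804 to 56569103). It fell at E11.5 to a mean of 137 in mutant pericytes, against 231 in control pericytes, the log2 ratio being -0.75 (SE 0.16, adjusted p = 0.000789) per the authors' deposited table. At E13.5 the pericyte means were 375 in mutants and 354 in controls per the authors' deposited table, a log2 ratio of 0.09 (SE 0.13, adjusted p = 1.00). Endothelial means were 121 in mutants and 136 in controls (log2 ratio -0.16, SE 0.41) per the authors' deposited table.

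The difference between the stages was itself past the threshold for Pde1c. Its log2 ratio at E13.5 minus that at E11.5 was 0.84 (95% interval 0.43 to 1.24, adjusted p = 0.0124 over 18267 genes, of which 1.43% were called). The test divides the difference of the log2 ratios by the root of their summed squared SE. Of the 10 members 1 was called and 5 had an unadjusted p under 0.05, where 13.3% of all genes did. The others of those 5 were Pde3a, with a difference of 0.54 (95% interval 0.15 to 0.93, adjusted p = 0.172), Prkg1 with 0.65 (0.09 to 1.22), Gucy1a1 with 0.54 (0.07 to 1.01) and Gucy1b1 with 0.56 (0.07 to 1.05). The median difference over the 10 members was 0.55, where that over all genes was 0.00. Only Gucy1a2 and Pde1a had a negative difference.

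Pde3a encodes the phosphodiesterase of cyclic AMP that cyclic GMP inhibits (chromosome 6, plus strand, 141249269 to 141507448). It fell at E11.5 to a mean of 309 in mutant pericytes, against 493 in control pericytes, the log2 ratio being -0.68 (SE 0.18, adjusted p = 0.0113) per the authors' deposited table. At E13.5 its means were 2896 in mutant and 3182 in control pericytes (log2 ratio -0.14, SE 0.09, adjusted p = 1.00) per the authors' deposited table. In endothelial cells they were 193 in mutants and 222 in controls (log2 ratio -0.21, SE 0.30) per the authors' deposited table. Exons of Pde3a overlap those of Gm28523 on the opposite strand by up to 741 bases. Gm28523 averaged 8.66 in mutant and 13.8 in control pericytes at E11.5 (log2 ratio -0.67, adjusted p = 0.481) per the authors' deposited table. At E13.5 it averaged 69.9 in mutant and 77.5 in control pericytes per the authors' deposited table. The part of this overlap in the Pde3a values was not tested.

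Pde5a, the cyclic GMP-specific phosphodiesterase gene and target of sildenafil (chromosome 3, plus strand, 122728947 to 122859374), was not called. Its pericyte means were 1019 in mutants and 1044 in controls at E13.5, and 169 in mutants and 214 in controls at E11.5, per the authors' deposited tables. The log2 ratios were -0.04 (SE 0.09) at E13.5 and -0.34 (SE 0.22) at E11.5 per the authors' deposited tables. The 95% interval at E13.5 ran from -0.21 to 0.13, the narrowest of the members, and that at E11.5 from -0.77 to 0.09. Endothelial means were 711 in mutants and 605 in controls (log2 ratio 0.23, SE 0.31) per the authors' deposited table.

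Pde1a, another calcium and calmodulin-activated phosphodiesterase gene (chromosome 2, minus strand, 79834453 to 80129458), had E13.5 pericyte means of 121 in mutants and 129 in controls per the authors' deposited table. At E11.5 its means were 16.7 in mutant and 13.8 in control pericytes per the authors' deposited table, with a log2 ratio of 0.27 and an SE of 0.59. The endothelial table has no row for it.

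The falls of Pde1c and Pde3a stood among lower levels of most phosphodiesterase genes at E11.5. Phosphodiesterase genes were taken by gene name, and 16 were tested there, the 4 members and 12 others of a pathway list. Of these 15 had a negative log2 ratio, which for Pde6d was only -0.02. The median of the 16 was -0.48, where that of all tested genes was -0.00. Of the 16, 5 were called lower, where 2.70% of all genes were. The called genes besides Pde1c and Pde3a were those of enzymes specific for cyclic AMP, namely Pde4b, Pde8a and Pde8b. Their log2 ratios were -0.74, -1.43 and -0.86 (adjusted p = 0.0181, 0.0320 and 0.0439) per the authors' deposited table. Means of Pde8a were only 11.4 in mutants and 30.6 in controls per the authors' deposited table. At E13.5, 0 of the 16 were called in pericytes, with a median log2 ratio of -0.04 and 1 unadjusted p under 0.05, by the authors' test (DESeq2 named in the submitters' notes). Over all genes tested there, 0.388% were called and 4.06% had such a p. The 16 tested in endothelial cells were not the same set: Pde1a had no value there, and Pde2a was tested in its place. Of these, 0 were called by the authors' test, with a median of -0.10, where 7.30% of all genes were called. The 1 unadjusted p under 0.05 was that of Pde2a, where 20.0% of all genes had such a p.

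**Figure D3:**
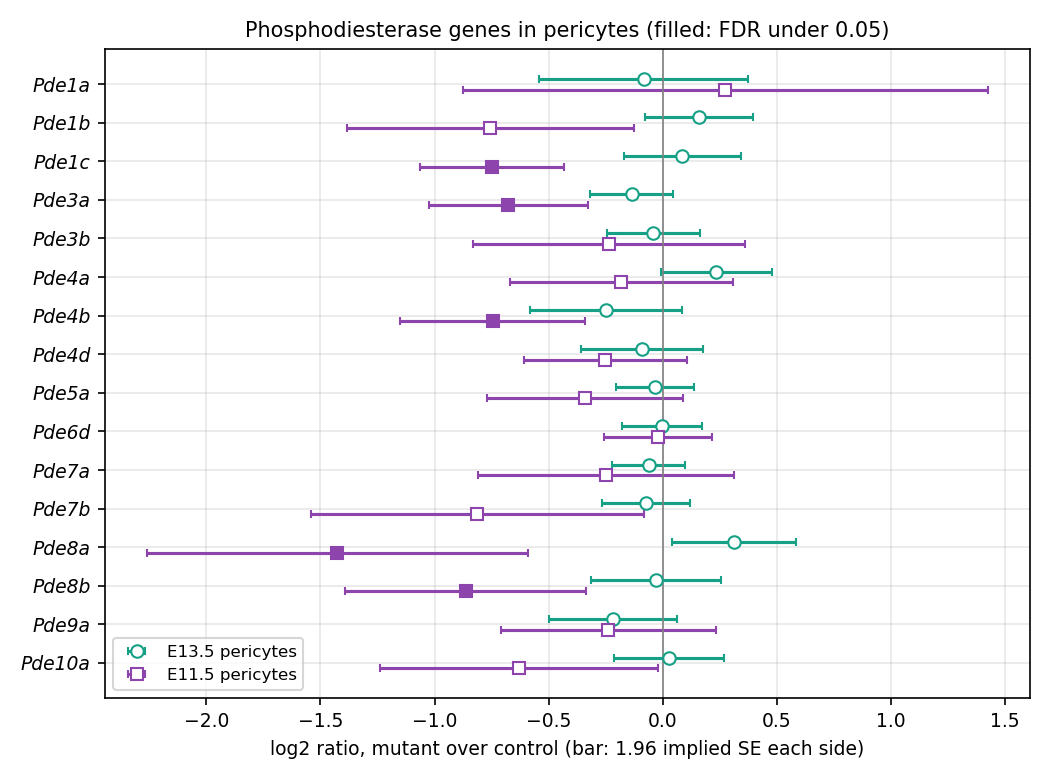
Log2 ratio of mutant over control (x axis) for the 16 phosphodiesterase genes tested in pericytes (rows), at E13.5 (green circles) and E11.5 (purple squares). Bars span 1.96 implied SE on each side and filled symbols mark an adjusted p under 0.05; at E11.5, 15 of the 16 lie left of 0 and 5 are filled, and at E13.5 none is filled.

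Both the spread and gene length touch the E11.5 calls. Under a wider spread, set so that the median absolute test statistic over all genes was that of a standard normal, which takes most genes as unchanged, Pde1c had an adjusted p of 0.503 and Pde3a of 0.914, 0 of 10 members were called in place of 2, and the stage difference of Pde1c had an adjusted p of 0.656. Long genes and weakly expressed genes also had lower log2 ratios in general at E11.5. With genes in 4 equal groups by exon length, the longest group held 11 of the 16 phosphodiesterase genes. Its median log2 ratio was -0.09, and 4.44% of its genes were called lower. With genes in 4 equal groups by mean level, the lowest group held 3 of the 16. Its median was -0.24, and 2.40% of its genes were called lower. The second lowest group held 8, with a median of -0.07 and 4.46% called lower. The parts of length and level in the result were not tested.

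Markers of several cell types were lower in E11.5 mutant pericytes as well. Of 12 pericyte markers tested 5 fell, with a median log2 ratio of -0.59 and summed means of 11248 in mutants and 14188 in controls per the authors' deposited table. Of 9 fibroblast and meningeal markers 4 fell, with a median of -0.88 and summed means of 74864 in mutants and 99376 in controls per the authors' deposited table. Of 10 myeloid markers 2 fell, with a median of -0.99 and sums of 1210 in mutants and 2317 in controls, and of 8 endothelial markers 1 fell, with a median of -1.03 and sums of 649 in mutants and 1221 in controls, per the authors' deposited table. All 8 endothelial markers had a negative log2 ratio, and the called one was Erg. Erg was not particular to the endothelial sort: per kb it stood at the 87.9th percentile in E13.5 control pericytes and the 70.0th in control endothelial cells. The part of these cells in the falls of Pde1c and Pde3a was not tested. Smooth muscle markers had a median of 0.12 there, with 6 of 7 log2 ratios positive and 1 called higher.

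In the endothelial sort, markers of red cells, platelets and myeloid cells were higher in mutants. All 6 platelet and megakaryocyte markers had a positive log2 ratio and 4 rose, with summed means of 20003 in mutants and 9352 in controls, per the authors' deposited table. Of 9 erythroid markers 8 rose, with summed means of 1.3e+06 in mutants and 47267 in controls, per the authors' deposited table. All 10 myeloid markers had a positive log2 ratio and 3 rose, with a median of 0.98 and summed means of 20939 in mutants and 12236 in controls, per the authors' deposited table. Platelets are known to express soluble guanylyl cyclase and PDE5A, and the part of these markers in the positive log2 ratios of Gucy1a1, Gucy1b1 and Pde5a was not tested. Pericyte markers summed to 3228 in mutants and 3989 in controls in that sort, with 0 of 11 called and a lowest adjusted p of 0.151 per the authors' deposited table, beside 129627 and 149926 for endothelial markers. The 11 endothelial markers had a median log2 ratio of -0.22, with 3 positive and 8 negative. Of them 1 was called lower, Kdr, at -0.44 (adjusted p = 0.0209) per the authors' deposited table. Their part in the log2 ratio of Nos3 was not tested.

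In E13.5 pericytes, Xist, the RNA of the inactive X chromosome, averaged 5.73 in mutants and 36145 in controls per the authors' deposited table. None of the 10 genes lies on the X chromosome, and a difference in sex between these groups cannot be told apart from genotype. The log2 ratio of Tgfbr1, which encodes ALK5, was 0.03 in E13.5 pericytes, 0.43 in E11.5 pericytes and -0.11 in endothelial cells per the authors' deposited tables, none called, and the floxed exons could not be looked at apart from the rest of the gene.

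Between the cell types at E13.5 the mutant effect did not differ past the threshold for any tested member. Of 8 members with a value in both sorts, 0 had a log2 ratio that differed between pericytes and endothelial cells, at an adjusted or an unadjusted p under 0.05 of the test of the difference, where 3.94% and 15.6% of 16920 genes did. The intervals were wide. For Gucy1a1 the log2 ratio in pericytes minus that in endothelial cells was -0.63, with a 95% interval from -1.88 to 0.62, and for Gucy1b1 it was -0.13, from -0.75 to 0.49. The labels do not say whether the sorts came from the same embryos, and the test takes them as independent.

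The levels of the genes themselves ranked differently by cell type and stage. The tables were normalized separately, so each gene's control mean per kb was ranked among all genes of its own table, with no test. Pde3a stood at the 75.0th percentile in E13.5 control pericytes, the 41.4th in E11.5 control pericytes and the 23.6th in control endothelial cells. Pde5a stood at the 56.5th, 32.5th and 44.8th percentile, and Prkg1 at the 64.3rd, 54.6th and 16.9th, in the same order. Nos3 and Npr1 had the opposite order of cell types, at the 83.3rd and 66.2nd percentile in endothelial cells and the 12.4th and 19.2nd in E13.5 pericytes. Gucy1a2 was at the 1.26th percentile in endothelial cells and the 34.5th in E13.5 pericytes.

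Within E13.5 control pericytes the order per kb ran from Pde3a at 249.9 through Prkg1 at 154, Pde5a at 106, Gucy1a1 at 81.3 and Gucy1b1 at 61.5 to Gucy1a2 at 27.5. Below them came Pde1a at 21.4, Pde1c at 17.6, Npr1 at 8.41 and Nos3 at 4.47 normalized counts per kb. At E11.5 the control order began with Prkg1 at 76.3 and Gucy1b1 at 75.4, with Gucy1a1 at 45.7 and Pde3a at 38.7 after them. Whether neighbours in these orders differ beyond the spread between samples was not analysed here. Pde3a over Pde5a per kb was 2.19 in mutant and 2.35 in control pericytes at E13.5, 1.41 in mutant and 1.78 in control pericytes at E11.5, and 0.209 in mutant and 0.284 in control endothelial cells.

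**Figure D4:**
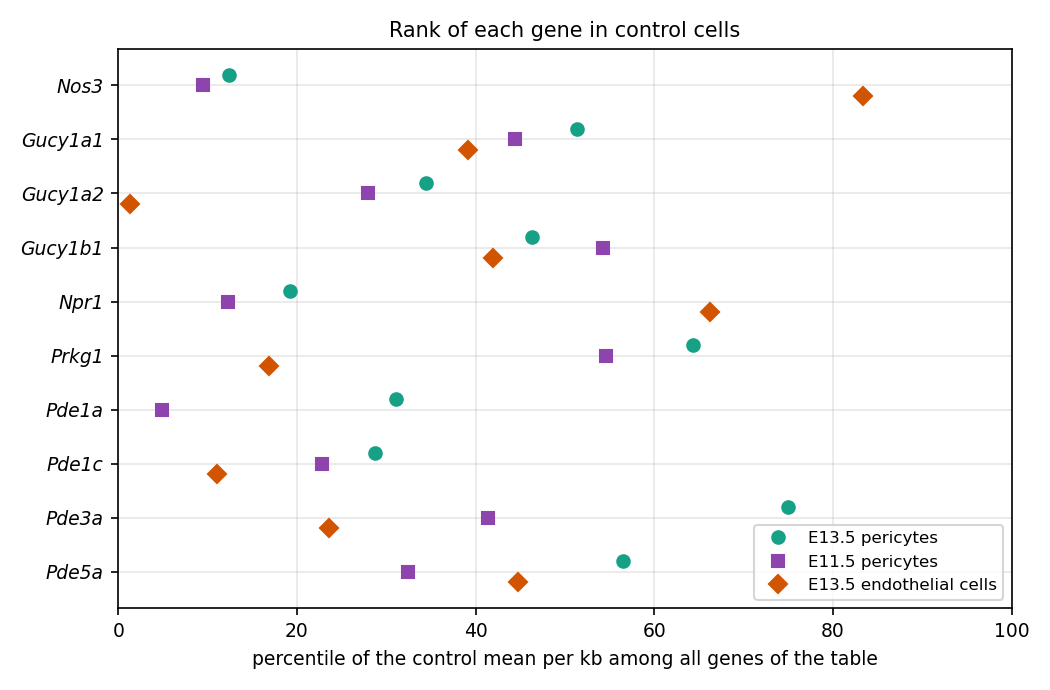
Percentile of each gene's control mean per kb of exon among all genes of its table (x axis) for the 10 genes (rows), in E13.5 pericytes (green circles), E11.5 pericytes (purple squares) and E13.5 endothelial cells (orange diamonds). Pde3a runs from the 23.6th percentile in endothelial cells to the 75.0th in E13.5 pericytes, and Nos3 from the 9.44th in E11.5 pericytes to the 83.3rd in endothelial cells.

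A list of 59 other genes of nitric oxide synthesis, natriuretic peptides, cyclic GMP targets, other phosphodiesterases and cyclic nucleotide export was set beside the members. In E13.5 pericytes 40 of them were tested, 1 rose and 2 fell, with a median log2 ratio of 0.00, where 0.224% of all genes were called higher and 0.164% lower. Trpc6, a cation channel that the cyclic GMP kinase is known to phosphorylate, rose to a mean of 74.5 in mutants, against 25.6 in controls, the log2 ratio being 1.54 (SE 0.25, adjusted p = 3.8e-06) per the authors' deposited table. Ddah1, whose enzyme breaks down the endogenous inhibitor of nitric oxide synthases, fell to 1999 in mutants, against 2632 in controls (log2 ratio -0.40, SE 0.10, adjusted p = 0.0187) per the authors' deposited table. Abcc4, an exporter of cyclic nucleotides, fell to 160 in mutants, against 249 in controls (log2 ratio -0.64, SE 0.17, adjusted p = 0.0430) per the authors' deposited table.

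At E11.5, 39 of the list were tested, 1 rose and 5 fell, with a median log2 ratio of -0.02, where 0.642% of all genes were called higher and 2.70% lower. Under the wider spread 0 of these 6 were called. The one that rose was Corin, the protease that activates atrial natriuretic peptide, at means of 426 in mutants and 215 in controls (log2 ratio 0.99, SE 0.23, adjusted p = 0.00356) per the authors' deposited table. Ddah1 fell here too, to 353 in mutants, against 622 in controls (log2 ratio -0.82, SE 0.23, adjusted p = 0.0235) per the authors' deposited table. Npr3, the clearance receptor of natriuretic peptides, fell to 202 in mutants, against 354 in controls (log2 ratio -0.81, SE 0.24, adjusted p = 0.0313) per the authors' deposited table. The others that fell were the 3 phosphodiesterase genes given above.

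In endothelial cells 40 of the list were tested, 1 rose and 2 fell, with a median of -0.11, where 5.11% of all genes were called higher and 2.19% lower, so the count of 3 is near the share over all genes. None of these 3 was called under the wider spread. Pts, an enzyme gene of tetrahydrobiopterin synthesis, the cofactor of nitric oxide synthases, rose to 917 in mutants, against 710 in controls (log2 ratio 0.37, SE 0.11, adjusted p = 0.0209) per the authors' deposited table. Itpr1, a calcium release channel gene, had a log2 ratio of -0.32 (SE 0.11, adjusted p = 0.0382), and Abcc4 one of -0.56 (SE 0.19, adjusted p = 0.0465), per the authors' deposited table. Both calls of Abcc4 were lost with no filter on low genes, and the endothelial one also with log2 ratios centred on the median. At E11.5 the log2 ratio of Abcc4 was 0.13 (SE 0.33, adjusted p = 0.871) per the authors' deposited table.

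By the pattern of the 3 log2 ratios, the genes nearest to Pde3a among 8725 genes above the median level of every table were Smad7, Ctnnb1 and Nfat5, at distances of 0.06, 0.06 and 0.07 on the log2 scale. Those nearest to Pde1c were Hdac7, Khdrbs1 and Ripk1, at 0.08 each, and those nearest to Gucy1b1 were Tnik, Lsp1 and Cd44, at 0.13, 0.13 and 0.19. Each distance is taken over 3 comparisons and is a description.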

How the data were processed

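Per the labels' protocols, KAPA libraries of sorted cells' messenger RNA were read on a NovaSeq. The submitters' processing notes name the build mm10 and the tools Partek, Bowtie2 and DESeq2, with no version or role; the annotation, counting step, strand setting, filters and model are not given in the sources used here. All 3 tables are the authors' comparisons of mutants with controls. Per the file headers, each holds a least-squares mean per group, the authors' p-value with its step-up FDR, and the mutant over control ratio. The deposited signed fold change, a score with values below 0, was not used here. The deposited means were read as a signal, mean normalized counts of unstated scale, so depth per sample is unknown and no counting interval is given. Dividing the means gives the deposited ratio, and the FDR matches Benjamini-Hochberg adjustment over 20084 (E13.5 pericytes), 19301 (E11.5 pericytes) and 18132 (endothelial) genes. Genes with a p but no FDR have low means. A further 17 (E13.5 pericytes), 16 (E11.5 pericytes) and 3 (endothelial) genes have no p. Among these, the endothelial markers Pecam1 and Cldn5 have no value in either pericyte comparison and are left out of its marker counts.

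The authors' FDR is printed as the adjusted p; DESeq2 is the testing tool the submitters name. The SE is the log2 ratio over the normal deviate of the 2-sided p, which assumes a Wald test; it was used for the differences between comparisons, with Benjamini-Hochberg adjustment over all genes with an FDR in both tables. No label says that samples were separate litters, so the p-values speak of the spread among these samples, possibly technical. Lengths and positions come from GENCODE M21 (GRCm38, which is mm10), start regions from RefSeq. Gene names had to match exactly; Irag1 was found under its older symbol Mrvi1.

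The members, the pathway list and the marker lists were chosen with earlier results of these data known. All 10 members were named, with every called gene of the pathway list and the 3 genes nearest to Gucy1b1 and to each called member by Euclidean distance. Tests per library had no columns to use. Alternatives were an FDR of 0.1, a log2 ratio of at least 1, no filter on low genes, a rescaled spread, centring on the median, another gene length and a pseudocount of 10. Software was scipy 1.17.1, pandas 2.3.3, numpy 2.4.6 and matplotlib 3.10.9 under Python 3.11.15.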

Additional observations from a re-analysis of the deposited data

Results flagged for a closer look

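The mutant effect on 4 genes differed between the pericyte stages by the test of the difference itself, given as the log2 ratio at E13.5 minus that at E11.5. Of 10 members 1 was called. Of 36 tested genes of the list 2 had a called positive and 1 a called negative difference. Over all 18267 genes 1.43% were called. With the spread rescaled only 2 of the 18267 differed, and Pde1c had an adjusted p of 0.656. For Pde1c the difference was 0.84 (adjusted p = 0.0124). For Pde8a it was 1.74 (adjusted p = 0.0187), for Trpc6 1.50 (adjusted p = 0.0361) and for Corin -1.22 (adjusted p = 0.00273). Trpc6 also differed between the cell types at E13.5, with a log2 ratio in pericytes minus that in endothelial cells of 1.49 (adjusted p = 0.00147). It was 1 of 35 tested genes of the list, and 0 of 8 members were called there, where 3.94% of 16920 genes were. The effects at E13.5 and E11.5 were 0.09 and -0.75 for Pde1c, 0.31 and -1.43 for Pde8a, 1.54 and 0.04 for Trpc6 and -0.23 and 0.99 for Corin, as log2 ratios from the authors' deposited tables.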

How the results depend on the processing

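No paired analysis was possible because the tables hold group means and no column per sample; leaving out single replicates was not run for the same reason. With the spread rescaled, 0 members and 0 genes of the pathway list were called at E11.5 in place of 2 and 6, 0 of the list in endothelial cells in place of 3, and 0 members differed between stages in place of 1. Over all genes that alternative called 142 in E13.5 pericytes, 5 in E11.5 pericytes and 49 in endothelial cells, in place of 78, 646 and 1323, and left 2 of 18267 different between stages. Asking for a log2 ratio of at least 1 as well left 0 members at E11.5, and of the list 1 in E13.5 pericytes, 1 in E11.5 pericytes and 0 in endothelial cells. At an adjusted p under 0.1, 5 of the list were called in endothelial cells. With the longest transcript as gene length, the control level of Gucy1a1 over that of Gucy1b1 per kb was 1.61 in E13.5 pericytes, 0.736 in E11.5 pericytes and 1.05 in endothelial cells, in place of 1.32, 0.606 and 0.863. The other counts stayed within 1.5 times, but Abcc4 was no longer called in either E13.5 sort with no filter on low genes, nor in endothelial cells when centred on the median. A pseudocount of 10 moved none of the 29 members' log2 ratios by more than its SE.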

Other observations

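The following genes of the list did not pass the threshold and were chosen after their values were seen. An adjusted p under 0.1 was reached by 0.503% of all tested genes in E13.5 pericytes and by 10.8% in endothelial cells. Mrvi1, which encodes the partner of the cyclic GMP kinase at the calcium release channel, had E13.5 pericyte means of 182 in mutants and 120 in controls (log2 ratio 0.60, SE 0.17, adjusted p = 0.0877) per the authors' deposited table. Pde2a, a phosphodiesterase gene stimulated by cyclic GMP, had endothelial means of 2155 in mutants and 3393 in controls (log2 ratio -0.65, SE 0.23, adjusted p = 0.0569) per the authors' deposited table. Corin and Prkg2, a second cyclic GMP kinase gene, had endothelial log2 ratios of -3.15 (SE 1.14, adjusted p = 0.0655) and -3.27 (SE 1.45, adjusted p = 0.165) per the authors' deposited table, with means of 11.2 and 31.1 in mutants against 99.3 and 299.7 in controls. Among the 11 pericyte markers of that sort, Cspg4 averaged 37.6 in mutants and 238 in controls (log2 ratio -2.66, adjusted p = 0.151) and Ndufa4l2 averaged 16.4 in mutants and 64.5 in controls (log2 ratio -1.98, adjusted p = 0.190), per the authors' deposited table. These were the lowest log2 ratios of the 11 markers. The median of the 11 was -0.15, with 3 positive, 8 negative and 0 called. Control pericytes at E13.5 had means of 508 for Corin and 469 for Prkg2, per the authors' deposited table, and the part of pericytes in the endothelial values was not tested.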
